A study of Mus musculus with 6 samples.

Results

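The piRNA processing factors are 10 genes whose proteins turn long precursor transcripts into piRNAs and pass them to PIWI proteins: Mov10l1, Mael, Ddx4, Asz1, Gtsf1, Pld6, Henmt1, Fkbp6, Pnldc1 and Exd1. They were chosen by symbol, and each symbol had exactly 1 Ensembl identifier in the deposited mRNA table, so all 10 of 10 were found among its 21310 genes. The table holds read counts from 2 libraries of mouse pachytene spermatocytes, which are germ cells midway through the first meiotic prophase: 1 from wild type (WT) and 1 from Alkbh1-/-. The Alkbh1-/- allele lacks exon 6 of Alkbh1, an AlkB-type dioxygenase, and carriers were backcrossed to C57/BL6. The sources used here give neither ages, nor the number of animals, nor the way the cells were separated. The series also holds 4 small RNA libraries, including 1 of the Tzfp gene trap (TzfpGTi/GTi), which carry no values for these genes and were not used here; no mRNA value from Tzfp mutants was analysed.

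piRNAs are small RNAs of the germ line that guide PIWI proteins to complementary transcripts, among them those of transposons. In pachytene spermatocytes most piRNAs come from long single-stranded precursors. The RNA helicase MOV10L1 binds the precursors, the mitochondrial nuclease PLD6 cuts them beside scaffold proteins such as ASZ1, the exonuclease PNLDC1 trims the 3′ ends and the methyltransferase HENMT1 methylates them. DDX4, MAEL, GTSF1, FKBP6 and EXD1 act at the steps in which PIWI proteins are loaded, cut their targets or start further rounds of processing.

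The WT library held 8222671 counts and the Alkbh1-/- library 10229260. Levels are given as CPM, counts relative to the library total, after TMM scaling, which sets the libraries to a common size from the bulk of their genes. Each genotype had a single mRNA library, so no test was possible and there is no replicate error. Each ratio of Alkbh1-/- to WT CPM has an exact (Clopper-Pearson) 95% interval, which covers counting error only. PCR copies are not independent molecules, so the interval may be too narrow even for that error. Transcript lengths were not used here, so CPM are compared between genotypes for a gene and not between genes. Alkbh1 itself had nearly equal levels (171 counts in WT, 209 in Alkbh1-/-, ratio 0.962), but a count summed over all its exons cannot check the loss of exon 6. For the cell label, 21 of 22 meiotic prophase markers were in the table, and all 21 had 1 CPM or more in at least 1 library. This does not tell cell types apart. The 15 spermatid, 10 spermatogonial, 11 Sertoli and 7 Leydig markers in the table all reached that level too. Sertoli cell markers were also present: 11 of 12 were in the table, none was at 0, and their summed level was 3123 CPM in WT against 1517 CPM in Alkbh1-/-.

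Most of the 10 genes differed little in mRNA level between the Alkbh1-/- and WT libraries, with ratios of 0.884 to 1.22 in 8 of them. Mov10l1 and Pnldc1, the precursor-binding helicase and the 3′ trimming enzyme, were at least 1.5-fold higher, and none was at least 1.5-fold lower. Both calls ended when the libraries were scaled so that the median meiotic prophase gene had a ratio of 1 (log2 0.35 and 0.45), and that of Pnldc1 ended with a pseudocount of 5 CPM (log2 0.57). A count of 2 of 10 compares with 10.2% of the 15865 measured genes (those reaching 1 CPM in either library) that were as much higher, and 8.93% that were as much lower. Among genes reaching 20 CPM in either library, these shares were 5.54% and 7.25% of 8046 genes. All 10 members reached it, but Pnldc1 only in the Alkbh1-/- library (11.9 CPM in WT, 20.1 CPM in Alkbh1-/-). With a floor of 20 CPM on the mean, which left Pnldc1 out, 1 of 9 members was as much higher, beside 4.95% of genes. With 10 genes, the difference of 2 of 10 from 10.2% is 1 gene. The median log2((Alkbh1-/- + 1)/(WT + 1)) over the 10 members was 0.16, beside 0.0035 over all measured genes, and 7 of 10 members lay above 0, as did 50.5% of all measured genes. Under the scaling to meiotic prophase genes the members' median was -0.12, beside -0.26 over all genes, and 3 of 10 lay above 0; with library totals or upper quartile scaling 8 did.

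**Figure D1:**
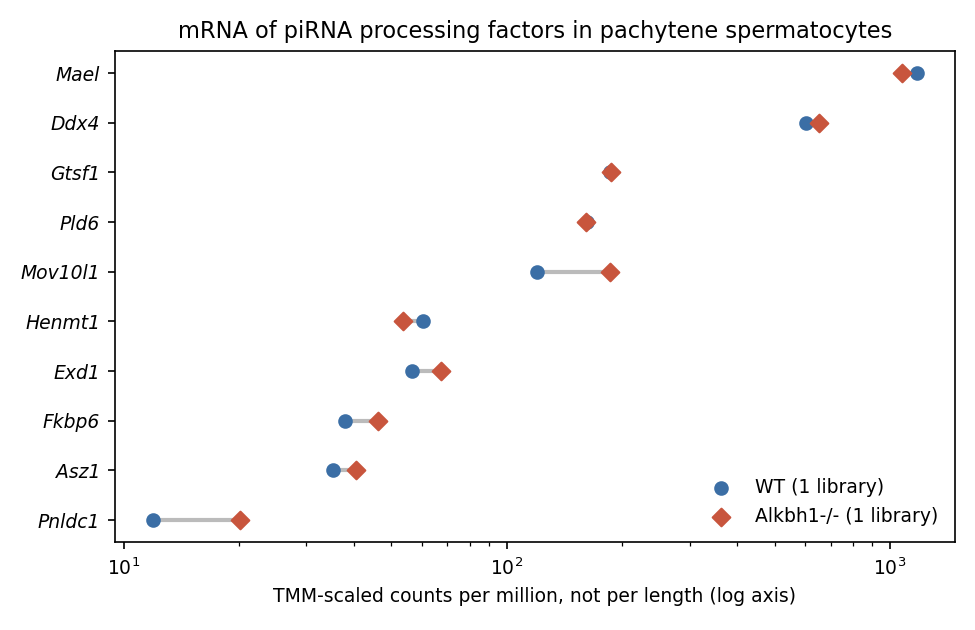
TMM-scaled CPM of each member (horizontal log axis, not corrected for transcript length) in the WT library (circles) and the Alkbh1-/- library (diamonds), with a grey line joining the 2 values of a gene. The widest gaps are those of Pnldc1 (11.9 and 20.1 CPM) and Mov10l1 (120 and 186 CPM); the symbols of Gtsf1 and Pld6 lie on each other.

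Precursor selection and cutting come first in the pathway. Mov10l1 (ENSMUSG00000015365, chromosome 15) had 978 counts in WT and 1928 in Alkbh1-/-, or 120 and 186 CPM. Its ratio was 1.55 (interval 1.44 to 1.68; log2 0.63), and 91.2% of measured genes had a lower log2 ratio. The lower end of that interval lies under 1.5, so counting error alone leaves its side of the 1.5-fold line undecided, but not its place above WT in these libraries. Pld6 (ENSMUSG00000043648, chromosome 11), the nuclease at the outer mitochondrial membrane, had 1321 counts in WT and 1665 in Alkbh1-/-, or 162 and 161 CPM. Its ratio of 0.992 (interval 0.922 to 1.07) did not differ from 1 beyond counting error. Asz1 (ENSMUSG00000010796, chromosome 6), an ankyrin repeat scaffold of the same mitochondrial surface, had 286 counts in WT and 418 in Alkbh1-/-, or 35.2 and 40.4 CPM, with a ratio of 1.15 (interval 0.987 to 1.34). The ratio of Mov10l1 was 1.56 times that of Pld6 and 1.35 times that of Asz1, and the interval of Mov10l1 overlapped neither. How often 2 other genes lie as far apart was not computed. Among genes with 20 CPM or more in either library, 56.4% had an interval that left out 1, so such gaps cannot be called particular to these genes.

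The sequence before the Mov10l1 start is shown because this gene had the better counted of the 2 ratios past 1.5-fold and because it starts head to head with a neighbour, Mlc1. Mael, the member with most reads, is set beside it; Pnldc1 had no entry in the promoter table. Both runs are RefSeq sequence of GRCm38.p6, 5′ to 3′ on the gene's own strand, ending just before the first annotated start. They are chr15:88982744-88982890 (plus strand, 147 bases) and chr1:166238745-166238994 (minus strand, 250 bases). Capitals mark matches to the MYB core written as TAACNG or CAACNG, searched on both strands; A-MYB (Mybl1) is a known activator of piRNA pathway genes in pachytene cells.
Mov10l1: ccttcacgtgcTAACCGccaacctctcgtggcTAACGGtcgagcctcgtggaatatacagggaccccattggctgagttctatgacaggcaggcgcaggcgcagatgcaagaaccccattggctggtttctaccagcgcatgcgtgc
Mael: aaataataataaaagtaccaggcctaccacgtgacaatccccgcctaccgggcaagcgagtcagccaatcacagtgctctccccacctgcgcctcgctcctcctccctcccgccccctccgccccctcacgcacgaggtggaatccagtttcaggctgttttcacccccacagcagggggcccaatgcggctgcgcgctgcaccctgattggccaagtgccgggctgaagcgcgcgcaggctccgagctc

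The Mov10l1 run held 2 matches in 147 bases and the Mael run 0 in 250 bases. Over the 250 bases before each start, 9 of 10 members had an entry, in 11 windows. Matches lay in 4 of these windows (36.4%), belonging to Mov10l1, Pld6 and Fkbp6, beside 43.1% of all 32851 promoter windows. The share was thus not higher before the members, but 11 windows, 2 each from Pld6 and Fkbp6, are too few to compare frequencies. Summed over the 2 windows of each gene, Pld6 held 3 matches at a ratio of 0.992 and Fkbp6 held 1 at a ratio of 1.22. Whether matches go with the ratio was not tested. A match is a description of letters and not a bound site. Member windows were rich in G and C, with a median of 64.0% beside 52.4% over all windows, and the shares were not matched for this. Mybl1 mRNA had 1125 counts in WT and 1349 in Alkbh1-/- (138 and 130 CPM), a ratio of 0.944 (interval 0.871 to 1.02).

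Mlc1, which lies within 1 kb of Mov10l1 and is read in the opposite direction, had 1235 counts in WT and 2083 in Alkbh1-/-, or 152 and 201 CPM. Its ratio was 1.33 (interval 1.24 to 1.43), higher in Alkbh1-/- like that of Mov10l1 but by less. Exd1 has a head-to-head neighbour within 1 kb as well, Chp1, with a ratio of 0.834 (interval 0.716 to 0.970) beside 1.19 for Exd1. Within 1 kb of Pnldc1, the member with the highest ratio, lies Mrpl18, which had 166 counts in WT and 206 in Alkbh1-/-, a ratio of 0.977 (interval 0.792 to 1.21). Within 1 kb of Fkbp6 lies Trim50, with 17 and 12 counts (ratio 0.555, interval 0.242 to 1.23). Of these 4 neighbours, Mlc1 alone had an interval above 1, which is near the share over all genes. Such intervals were found for 25.4% of the 8046 genes with 20 CPM or more in either library, a level Trim50 did not reach. The sources used here do not say whether counting used strand, so reads of overlapping genes cannot be told apart; the protein-coding gene that overlaps a member is Fam102b at Henmt1, with 57 counts in WT and 60 in Alkbh1-/-.

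End maturation is carried out by Pnldc1 and Henmt1, and these genes had the highest and the lowest ratio of the 10. Counting error leaves both ranks undecided: the interval of Pnldc1 overlapped that of Mov10l1, and the interval of Henmt1 overlapped that of Mael. With a pseudocount of 5 CPM, Mov10l1 (log2 0.61) lay above Pnldc1 (log2 0.57). Pnldc1 (ENSMUSG00000073460, chromosome 17), the 3′ to 5′ trimmer, had 97 counts in WT and 208 in Alkbh1-/-, or 11.9 and 20.1 CPM. Its ratio was 1.69 (interval 1.32 to 2.17; log2 0.71), and 93.2% of measured genes had a lower log2 ratio. It is the member with fewest reads and the widest interval, which also spans 1.5. Henmt1 (ENSMUSG00000045662, chromosome 3), which adds the 2′-O-methyl group at the trimmed end, had 493 counts in WT and 554 in Alkbh1-/-, or 60.6 and 53.6 CPM. Its ratio was 0.884 (interval 0.782 to 1.00), lower in Alkbh1-/- by an amount at the edge of counting error. The ratio of Pnldc1 was 1.91 times that of Henmt1, the widest gap between any 2 members.

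**Figure D2:**
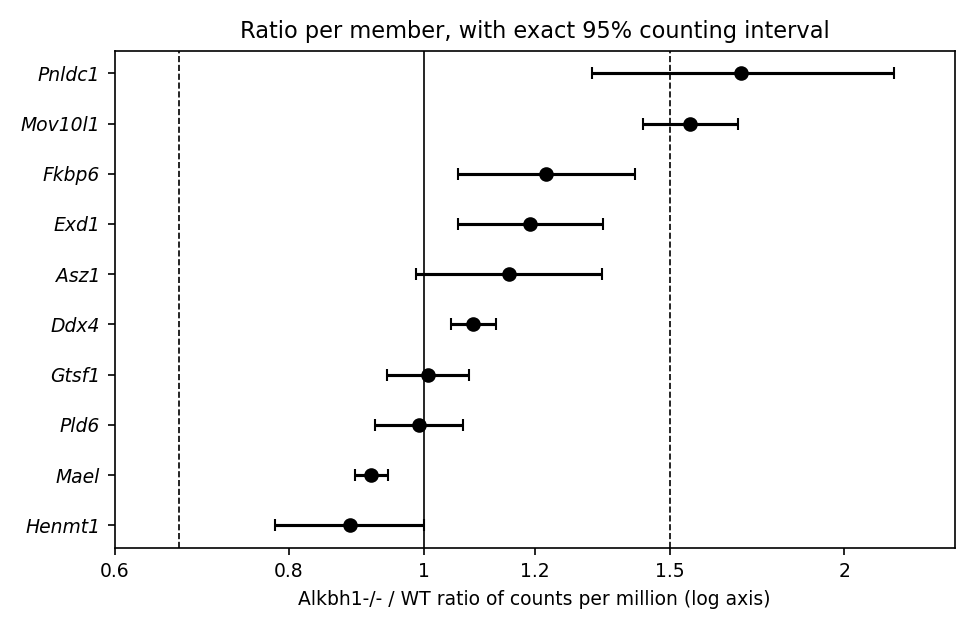
Ratio of Alkbh1-/- to WT CPM for each member (horizontal log axis) with its exact 95% interval for counting error; the solid line is a ratio of 1 and the dashed lines are 1.5-fold in either direction. Mov10l1 (1.55) and Pnldc1 (1.69) lie to the right of the 1.5-fold line and Henmt1 (0.884) and Mael (0.916) furthest to the left.

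The germ granule proteins with most reads differed little. Mael (ENSMUSG00000040629, chromosome 1), an HMG-box protein of germ granules, had 9546 counts in WT and 11115 in Alkbh1-/-, or 1173 and 1075 CPM, with a ratio of 0.916 (interval 0.891 to 0.942). Ddx4 (ENSMUSG00000021758, chromosome 13), the mouse VASA helicase and a general germ cell marker, had 4908 counts in WT and 6761 in Alkbh1-/-, or 603 and 654 CPM, with a ratio of 1.08 (interval 1.04 to 1.12). Their intervals left out 1 on opposite sides, while under the scaling to meiotic prophase genes both were lower in Alkbh1-/- (log2 -0.40 for Mael and -0.16 for Ddx4). Such small departures were common at high counts. Among the 8046 genes with 20 CPM or more in either library, 56.4% had an interval that left out 1. So did 6 of the 10 members, among them Pnldc1, which reached 20 CPM in Alkbh1-/- only.

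The remaining factors assist PIWI proteins. Gtsf1 (ENSMUSG00000022487, chromosome 15), a zinc finger protein that speeds target cutting by PIWI proteins, had 1514 counts in WT and 1937 in Alkbh1-/-, or 186 and 187 CPM, with a ratio of 1.01 (interval 0.941 to 1.08). Fkbp6 (ENSMUSG00000040013, chromosome 5), a co-chaperone of HSP90 in PIWI loading, had 307 counts in WT and 477 in Alkbh1-/-, or 37.7 and 46.1 CPM, with a ratio of 1.22 (interval 1.06 to 1.42). Exd1 (ENSMUSG00000048647, chromosome 2), an RNA-binding partner of TDRD12, had 460 counts in WT and 696 in Alkbh1-/-, or 56.5 and 67.3 CPM, with a ratio of 1.19 (interval 1.06 to 1.34). Gtsf1 was thus level between the libraries under TMM, and Fkbp6 and Exd1 were slightly higher in Alkbh1-/-, each under 1.5-fold at the upper end of its interval. Scaled to the meiotic prophase genes, Gtsf1 was lower (log2 -0.27), while Fkbp6 (0.013) and Exd1 (-0.025) were level.

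The order of the members among themselves does not depend on how the libraries are scaled. Of the 45 pairs of members, 20 had ratios whose intervals did not overlap. Of these 20, 8 involved Mov10l1, which lay above every other member but Pnldc1, and 5 involved Pnldc1. The share of such pairs among other genes was not computed, so these counts cannot be called particular to the members. Intervals that left out 1 were common among all genes with 20 CPM or more (56.4%). Among the reads of the 10 genes, Mov10l1 held 4.91% in WT (95% Wilson interval 4.62 to 5.22) and 7.48% in Alkbh1-/- (7.17 to 7.81). Pnldc1 held 0.487% (0.400 to 0.594) and 0.807% (0.705 to 0.924). Mael held 47.9% in WT (47.3 to 48.6) and 43.2% in Alkbh1-/- (42.5 to 43.8), so its share was lower while those of the helicase and the trimmer were higher. Summed over the 10 genes, the level was 2447 CPM in WT and 2492 CPM in the mutant, a ratio of 1.02 (interval 0.999 to 1.04). That sum rests on Mael, and without it the ratio was 1.11 (interval 1.08 to 1.14).

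**Figure D3:**
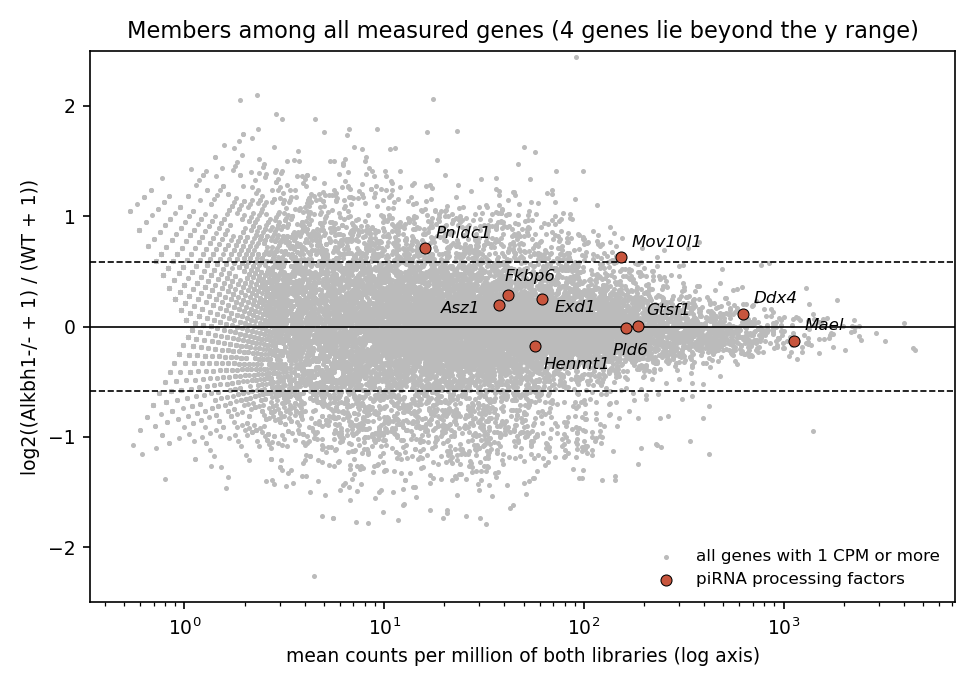
Log2((Alkbh1-/- + 1)/(WT + 1)) against the mean CPM of both libraries (log axis) for all 15865 measured genes (grey) and the 10 members (red); dashed lines are 1.5-fold, and 4 genes lie beyond the vertical range. Pnldc1 and Mov10l1 lie above the upper line, and the other 8 members lie between the lines.

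Other genes of the pathway stood near the members. Of 3 PIWI genes, Piwil1 and Piwil2 were measured and 0 passed 1.5-fold: Piwil1 had a ratio of 1.06 (interval 1.03 to 1.09) and Piwil2 of 1.09 (1.03 to 1.14). Piwil4 had 4 counts in WT and 3 in Alkbh1-/-, too few to compare. Of 9 Tudor domain genes, whose proteins dock PIWI proteins in germ granules, 0 passed 1.5-fold and the median log2 ratio was 0.20. They ran from Tdrd6, the one with most reads (ratio 0.864, interval 0.846 to 0.881), to Tdrd9, a helicase (1.25, interval 1.19 to 1.32). Mov10l1 and Pnldc1 lay above the range of the measured PIWI and Tudor domain genes in these libraries. Those genes all reached 20 CPM, where 5.54% of genes were at least 1.5-fold higher and 7.25% as much lower. A count of 0 in lists this short therefore tells little. Ratios past 1.5-fold were also found in 6 of 21 meiotic prophase genes.

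The other 9 piRNA genes varied more, around a median log2 ratio of 0.29. Of them, 3 were at least 1.5-fold higher and 1 was as much lower, beside 10.2% and 8.93% of all measured genes. The 3 were Morc1, a GHKL ATPase of transposon silencing (47 and 116 counts, log2 0.85), Dnmt3l, the cofactor of de novo DNA methylation (37 and 93 counts, log2 0.85), and Tex15, which acts in piRNA-directed DNA methylation (480 and 939 counts, ratio 1.54, interval 1.38 to 1.72). Spocd1, of the same methylation pathway, was the lower one (111 and 89 counts, log2 -0.61). Hsp90aa1, the chaperone that FKBP6 serves and the one of these 9 with most reads, had a ratio of 0.843 (interval 0.813 to 0.875), on the other side of 1 from Fkbp6.

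**Figure D4:**
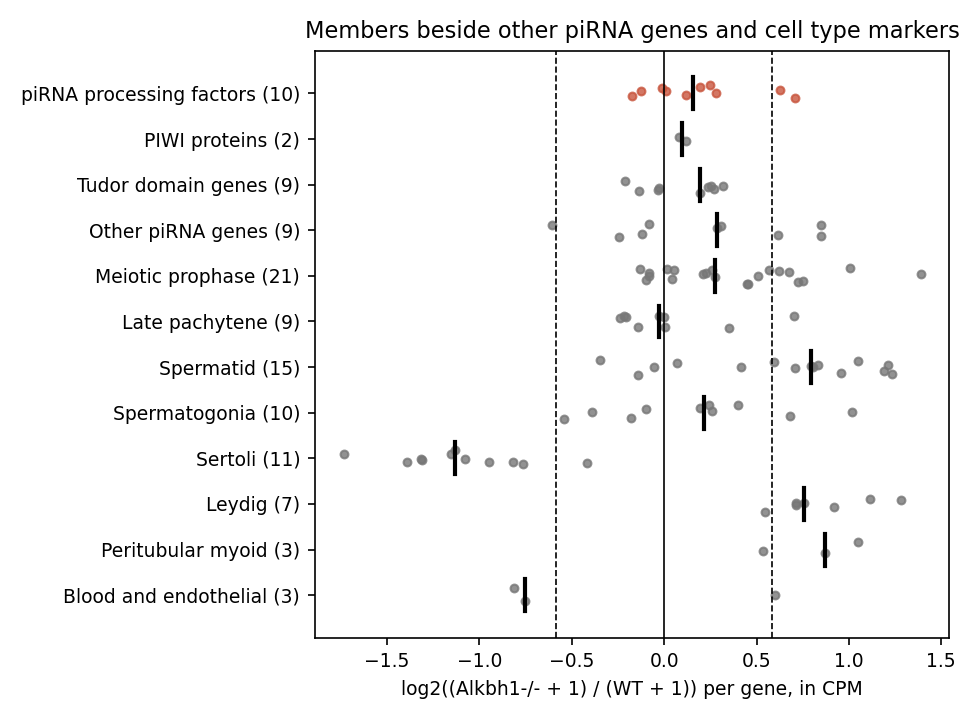
Log2((Alkbh1-/- + 1)/(WT + 1)) of each measured gene (points; the number per list is in brackets) for the members (red), other piRNA genes and cell type markers, with the list's median as a black bar and dashed lines at 1.5-fold. The members spread from -0.17 to 0.71 around a median of 0.16, between the Sertoli markers (median -1.13) and the spermatid markers (0.79).

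Sertoli cell, spermatid and Leydig cell markers differed between the 2 libraries by more than most members did. Of 11 measured Sertoli cell genes, 10 were at least 1.5-fold lower and 0 higher in Alkbh1-/-. Most spermatid genes went the other way, with 10 of 15 past 1.5-fold in the higher direction and 0 in the lower. Their sum was 1806 CPM in WT and 2342 CPM in Alkbh1-/-. The rise was not shared by all: 12 of 15 had a log2 ratio above 0, and the lowest, Tnp1, had a ratio of 0.785 (interval 0.735 to 0.837). Of 7 measured Leydig cell genes, 6 were at least 1.5-fold higher, with a summed 73.8 CPM in WT and 149 CPM in Alkbh1-/-; no gene of these 3 lists found in the table was at 0 in either library. Of 3 measured peritubular myoid genes, 2 were at least 1.5-fold higher and 0 as much lower. Of 3 measured blood and endothelial genes, 1 was as much higher and 2 as much lower. The part of these differences in the ratios of the members was not tested. In bulk RNA, fewer cells of a type and less RNA per cell cannot be told apart, and here the genotype cannot be told apart from the preparation of its only library.

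Germ cell lists gave 2 levels to set the members against. Meiotic prophase genes had a median log2 ratio of 0.28, with 6 of 21 at least 1.5-fold higher and 0 lower; they ran from Mlh3, a mismatch repair protein of crossovers (-0.13), to Prdm9, which places recombination hotspots (1.39, at 7 and 40 counts). Late pachytene genes had a median of -0.026 over 9 measured, with 1 higher and 0 lower, and ran from Ccna1 (-0.24) to Cdc25c (0.71). The median of the members (0.16) lay between the 2. When the libraries were scaled to the former list, the log2 ratio was -0.073 for Asz1, -0.29 for Pld6 and -0.45 for Henmt1, so Asz1 too changed sides; Mov10l1, Pnldc1 and Fkbp6 were the 3 members that stayed above 0. Of 10 spermatogonial genes, 2 were at least 1.5-fold higher and 0 lower (median 0.22).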

How the data were processed

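RNA over 200 nt (1 µg for WT, 1.6 µg for Alkbh1-/-) was enriched for mRNA on oligo(dT) beads, amplified by PCR (15 cycles) and read as 75 bp paired ends, per the labels' protocols. The authors deposited a table of raw read counts by Ensembl identifier; the submitters' processing notes name CASAVA 1.3, Novoalign, TopHat, bedtools and mm9 without roles. The sources used here do not name the counting tool or its use of strand. Of 21310 identifiers, 19848 (93.1%) matched a symbol.

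Counts were scaled by TMM (edgeR 4.0.16, R 4.3.3) over all genes and expressed as CPM. Log2 ratios used a pseudocount of 1 CPM, which understates changes of low genes. A gene was measured if it reached 1 CPM in either library, and 1.5-fold on that log2 scale was the limit for higher or lower. No model was fitted, as each genotype had 1 library. Ratios and intervals were tested on simulated data. An order of the members by level per length was planned and not made, since only genomic spans were at hand. Alternatives changed the scaling (DESeq2 1.42.0 size factors among them), pseudocount, floor and fold. All 10 members were named; of other lists, the highest, the lowest and the most counted gene, and genes past 1.5-fold where few. Mybl1, Mlc1, Chp1, Mrpl18, Trim50, Fam102b, Tex15 and Dnmt3l, and the motif, were chosen after values were seen. The members and lists were chosen with earlier results of these data known. Python 3.11.15, pandas 2.3.3, numpy 2.4.6, scipy 1.17.1 and matplotlib 3.10.9 were also used.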

Additional observations from a re-analysis of the deposited data

How the results depend on the processing

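The number of members at least 1.5-fold higher in Alkbh1-/- was 2, and it stayed 2 with library totals only, DESeq2 size factors, upper quartile scaling, a pseudocount of 0.5 CPM, no floor or a floor of 5 CPM. It was 1 with a pseudocount of 5 CPM (Mov10l1 alone, Pnldc1 at log2 0.57) and 1 with a floor of 20 CPM on the mean (where Pnldc1 was left out), and 0 at a fold of 2 or when scaled to the meiotic prophase genes. Over all genes, the share as much higher was 3.70% with the pseudocount of 5 CPM, 4.95% at the 20 CPM floor, 2.25% at a fold of 2 and 4.71% under the prophase scaling. It was 8.06% to 12.0% in the other alternatives. The number of members at least as much lower was 0 in every setting run, where the share over all genes was 17.4% under the prophase scaling and 2.36% to 9.95% elsewhere. The median log2 ratio was -0.12 when scaled to the meiotic prophase genes, a choice that shifted the median of all genes to -0.26, and between 0.12 and 0.19 in the other alternatives. The ratio of the summed CPM was 1.04 with library totals, 0.840 when scaled to the meiotic prophase genes and 1.11 with Mael left out, settings chosen after seeing the data. No paired analysis was possible because each genotype had 1 mRNA library, so no library could be left out either. Pnldc1, at 97 and 208 counts, is the member that depth limits most.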
